A study of Drosophila melanogaster with 3 samples.

Results

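The dosage compensation genes described here are the 7 listed genes of the Drosophila melanogaster male-specific lethal (MSL) complex: the noncoding RNA genes roX1 and roX2 and the protein genes msl-1, msl-2, msl-3, mof and mle. Each was found by its symbol in the gene column of the deposited expression table, whose joined names were split at commas. All 7 had a row, among 13358 named genes kept in the table, and all 7 reached 1 RPKM (reads scaled by the length of the transcript and the size of the library) in at least 1 library, as did 9693 genes in all. Of the 7, 6 had a row of their own, and mle shared its row with BubR1, a spindle checkpoint kinase gene.

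RNA was measured by total RNA sequencing in brains dissected from larvae in the third instar, of 3 genotypes, with 1 library for each. The double mutant library came from larvae homozygous both for the dBRWD3 allele PX2 and for the yem insertion GS21861 (dBRWD3PX2/PX2, yemGS21861/GS21861). The single mutant library came from larvae homozygous for PX2 alone (dBRWD3PX2/PX2), and the control library from heterozygotes (dBRWD3PX2/+), so that every library carried at least 1 PX2 chromosome and none was wild type at dBRWD3. The series was set up to compare brain transcriptomes of these 3 strains. The labels used here give neither the sex of the larvae nor how many brains were pooled. There were no replicates, so no test was run, and every statement compares these 3 libraries and not the genotypes.

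In fruit flies, males carry a single X chromosome and raise the output of its genes to match the paired X chromosomes of females. The MSL complex does this by binding along the male X and acetylating histone H4 there. The roX RNAs are made in males, are built into the complex by the helicase MLE, and spread from their own genes on the X. In females the RNA-binding protein Sex-lethal blocks translation of msl-2 messenger RNA, and without MSL2 protein the complex does not form. In bulk brain RNA, fewer cells of a type (male cells included) and less RNA per cell cannot be told apart.

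None of the 7 genes differed by 2-fold between any pair of libraries. In the deposited RPKM, roX2 stood lower, and roX1 higher, in both mutant libraries than in control. The protein gene rows in the mutant libraries lay between 0.987 and 1.44 times their control level. On the scale of log2((RPKM + 1)/(RPKM + 1)), 0 of 7 members passed 2-fold in each comparison, where 6.3% of the 9693 genes did so between single mutant and control, 5.75% between double and single mutant and 4.68% between double mutant and control. At 1.5-fold the count was again 0 of 7 in each comparison, against 20.1%, 17.4% and 16.1% of all genes. The largest of the 21 member ratios was 0.52. The count at 1.5-fold depended on scaling. After rescaling without short and multicopy RNA genes, roX1 passed 1.5-fold for double mutant over control (0.81). So did msl-2, at 0.73 for double mutant over control and 0.74 for double over single mutant. The share of all genes past 1.5-fold was not counted there.

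The roX genes lie apart on the X chromosome. roX1 was listed at X:3752929-3756720 and roX2 at X:11473089-11474467, in build dm3. In the Ensembl annotation (BDGP6, a later build) roX1 (FBgn0019661) is a noncoding gene on the minus strand with 5 transcripts of 3460 to 4832 bases. roX2 (FBgn0019660) is on the plus strand with 6 transcripts of 522 to 1368 bases. Although they share no long stretch of sequence, either RNA can serve the complex in males.

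roX2 was the most abundant member in all 3 libraries. It had 312 RPKM in the double mutant, 264 RPKM in the single mutant and 367 RPKM in control. Control was the highest and the single mutant the lowest of the 3 values. The double mutant had 0.849 times and the single mutant 0.717 times the control level, while the double mutant was 1.18-fold above the single mutant. On the log2(RPKM + 1) scale these are -0.48 (single mutant over control), -0.24 (double mutant over control) and 0.24 (double over single mutant). Of all genes, 28.1% differed at least as much as roX2 between single mutant and control, and 49.3% did so between double mutant and control.

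roX1 went the other way against control. It had 66.7 RPKM in the double mutant and 63.7 RPKM in the single mutant, against 46.2 RPKM in control. Both mutant values lay above control and within 4.61% of each other. The log2 ratio was 0.46 for single mutant over control, 0.52 for double mutant over control and 0.06 for double over single mutant. A difference of that size or more was seen in 30.2%, 19.6% and 85.9% of genes in the same comparisons.

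The balance of the 2 RNAs differed more between libraries than either level alone. roX2 exceeded roX1 4.68-fold in the double mutant, 4.14-fold in the single mutant and 7.96-fold in control, in RPKM. roX1 made up 17.6% of the summed roX RPKM in the double mutant and 19.5% in the single mutant, against 11.2% in control. The sum itself was 379 RPKM in the double mutant, 327 RPKM in the single mutant and 414 RPKM in control. In the deposited RPKM, the control library therefore had the most roX RNA in all and the smallest part of it as roX1. Its place as the library with the most roX RNA depended on scaling. After rescaling without short and multicopy RNA genes, both RNAs were higher in the double mutant than in control. The log2 ratios were then 0.06 for roX2 and 0.81 for roX1. The rescaling also raised the median of all genes in that comparison to 0.34, and relative to it roX2 stood at -0.28.

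**Figure D1:**
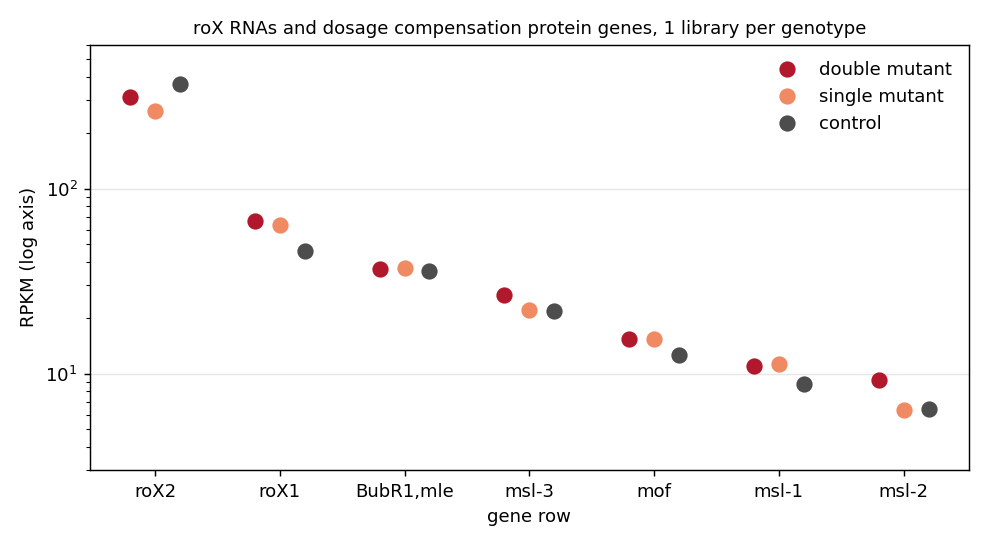
RPKM (log axis) of each member's row in the double mutant, single mutant and control libraries, 1 point per library. roX2 (264 to 367 RPKM) and roX1 (46.2 to 66.7 RPKM) lie above all protein genes, roX2 is highest and roX1 lowest in control, and msl-2 has the lowest level in each library.

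msl-2 (FBgn0005616, 2L:3462216-3466111) encodes the RING finger subunit, whose protein is made in males. Its RNA had 9.26 RPKM in the double mutant, 6.33 RPKM in the single mutant and 6.41 RPKM in control. The double mutant library stood alone, 1.46-fold above the single mutant and 1.44-fold above control, whereas the single mutant had 0.987 times the control level. The log2 ratios were 0.49, 0.47 and -0.02 in the same order, and 23.6% of genes differed by as much or more between double and single mutant. RNA level does not report MSL2 protein, which is held back after transcription in females.

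msl-1 (FBgn0005617, 2L:18683720-18688796) encodes the scaffold that MSL2 binds. It had 11.004 RPKM in the double mutant and 11.2 RPKM in the single mutant, against 8.78 RPKM in control. The double mutant had 0.982 times the single mutant level, and the log2 ratios to control were 0.30 for the double and 0.32 for the single mutant.

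mof (FBgn0014340, X:5767868-5770884) encodes the histone H4 acetyltransferase of the complex. It had 15.5 RPKM in each mutant library, against 12.6 RPKM in control, a log2 ratio of 0.27 in both comparisons with control. In the deposited RPKM, roX1, msl-1 and mof thus had both mutant libraries on one side of control and closer to each other than to it. How many of all genes have this shape was not counted. The shape was kept after rescaling without short and multicopy RNA genes, but with less room. The log2 ratios for double over single mutant and for single mutant over control were then 0.27 and 0.28 for mof. They were 0.24 and 0.32 for msl-1 and 0.35 and 0.46 for roX1.

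msl-3 (FBgn0002775) encodes the chromodomain subunit that binds histone H3 methylated on transcribed genes. It had 26.5 RPKM in the double mutant, 22.0 RPKM in the single mutant and 21.7 RPKM in control. As for msl-2, the double mutant was highest and the others lay close, with log2 ratios of 0.26 to the single mutant and 0.28 to control. The row's listed interval, 3L:7087918-7118623, covers 30706 bases and is also that of the row for form3, a formin gene. The annotated msl-3 gene spans 2321 bases, and its exons overlap those of form3, on the other strand, by 85 bases. form3 had a row and values of its own.

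mle, the RNA helicase gene that remodels the roX RNAs, could be read only through the joined row BubR1,mle (2R:1856470-1868345). That row had 36.6 RPKM in the double mutant, 37.0 RPKM in the single mutant and 35.8 RPKM in control. Its highest and lowest libraries differed 1.03-fold, and 99.2% of genes ranged at least as widely over the 3 libraries. Opposite differences in BubR1 and mle could not be seen in this sum.

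The order of levels was the same in all 3 libraries, with roX2 above roX1, then the BubR1,mle row, msl-3, mof, msl-1 and msl-2. RPKM is scaled to transcript length, so levels of different genes can be set side by side. roX2 stood above 95.6% of the 9693 genes in the double mutant, 95.01% in the single mutant and 96.01% in control, and msl-2 above 38.9%, 33.3% and 33.8%. The neighbours msl-1 and msl-2 were closest in the double mutant, with msl-1 1.19-fold above msl-2, against 1.77-fold in the single mutant and 1.37-fold in control. Summed over msl-1, msl-2, msl-3 and mof, protein gene RNA was 62.3 RPKM in the double mutant, 55.0 RPKM in the single mutant and 49.5 RPKM in control. The roX sum exceeded it 6.08-fold in the double mutant, 5.95-fold in the single mutant and 8.36-fold in control.

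As a group, the members had a median log2 ratio of 0.04 for single mutant over control, 0.06 for double over single mutant and 0.28 for double mutant over control. The medians of all genes in these comparisons were 0.04, 0.04 and 0.07. Of the 7 members, 5 were above 0 between single mutant and control, 5 between double and single mutant and 6 between double mutant and control, the exception in the last being roX2. Among all genes 54.1%, 53.8% and 58.0% were above 0. The comparisons share libraries, so these counts are not independent of each other.

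**Figure D2:**
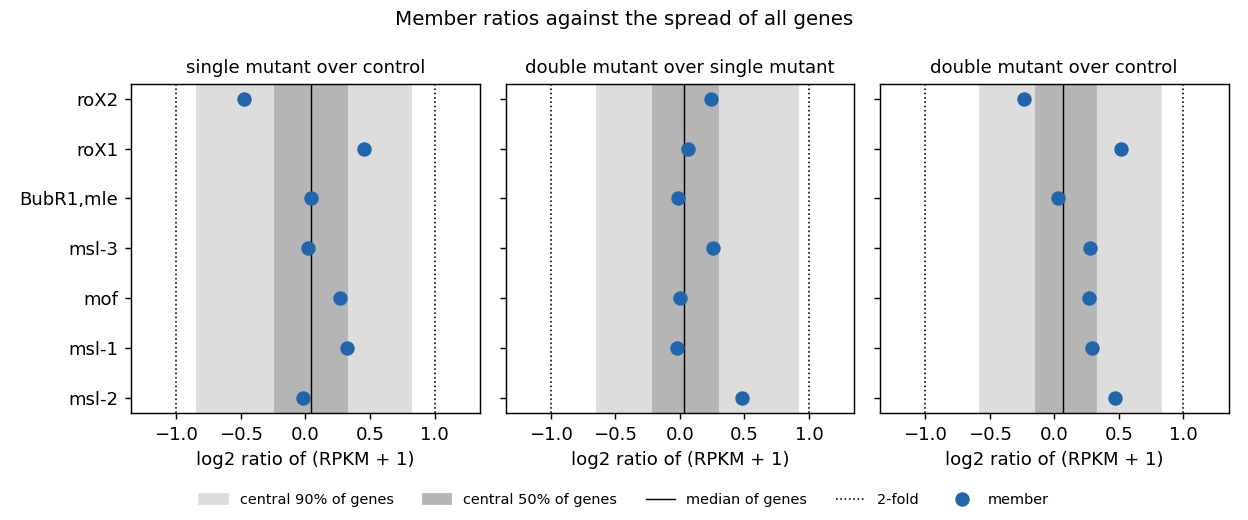
Log2 ratio of (RPKM + 1) for each member (points) in the 3 comparisons, with the central 90% (light) and central 50% (dark) of the 9693 genes, their median (line) and 2-fold (dotted). All points lie inside 2-fold, and roX2 at -0.48 and roX1 at 0.46 stand on opposite sides in single mutant over control.

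Rough read numbers behind the members were taken from the smallest steps in the RPKM values. In genes with 1 annotated transcript the most frequent low product of RPKM and length was 0.03 to 0.035 RPKM kb in the double mutant, 0.045 to 0.05 in the single mutant and 0.03 to 0.035 in control. If that step is 1 read, msl-2, the lowest member, rested on about 1100 reads in the double mutant, 510 in the single mutant and 760 in control, and roX2 on about 13000, 7600 and 15000. The control numbers assume that its column is 1 library. In it, 51.0% of the nonzero values had over 6 digits, mostly (98.4%) with a final 5, among them the values of 6 of the 7 members. Neither mutant column had such a value. The labels do not say whether control stands for more than 1 preparation.

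The complex acts on the male X chromosome, so X genes were set beside autosomal genes. The sex of the larvae is not given, and whether an X difference reflects the complex was not tested. The median X gene stood slightly above the autosomal median in every comparison. Over 1615 X genes the median log2 ratio for double mutant over control was 0.15, against 0.06 over 7947 genes of the autosome arms 2L, 2R, 3L and 3R, a difference of 0.09. The single autosome arms departed from the pooled arms by -0.02 to 0.02 in that comparison. The X difference was 0.04 for single mutant over control and 0.04 for double over single mutant. Of X genes 65.8% were higher in the double mutant than in control, against 56.6% of autosomal genes.

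Differences of 2-fold or more were few on the X, as on the autosome arms. Between double mutant and control, 4.33% of X genes were higher by 2-fold or more and 0.929% were lower by that much, against 2.81% and 1.77% of autosomal genes. Between single mutant and control the shares were 2.60% and 3.34% of X genes, against 2.72% and 3.69% of autosomal genes. Between double and single mutant they were 4.71% and 0.805% of X genes, against 4.23% and 1.62% of autosomal genes. Within each library, the median X gene had 1.08 times the autosomal median RPKM in the double mutant, 0.991 times in the single mutant and 0.983 times in control. The autosome arms themselves ranged from 0.937 to 1.07 times the pooled median in the double mutant and from 0.940 to 1.05 times in control. These ratios moved with the filter on low values, to 1.43, 1.32 and 1.27 with no filter and to 0.991, 0.942 and 0.907 with a filter of 5 RPKM. X genes had longer transcripts than autosomal genes (medians of 2190 and 1884 bases). Within 5 classes of transcript length, a split chosen after seeing the data, the X difference averaged 0.09 for double mutant over control, 0.04 for double over single mutant and 0.06 for single mutant over control.

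**Figure D3:**
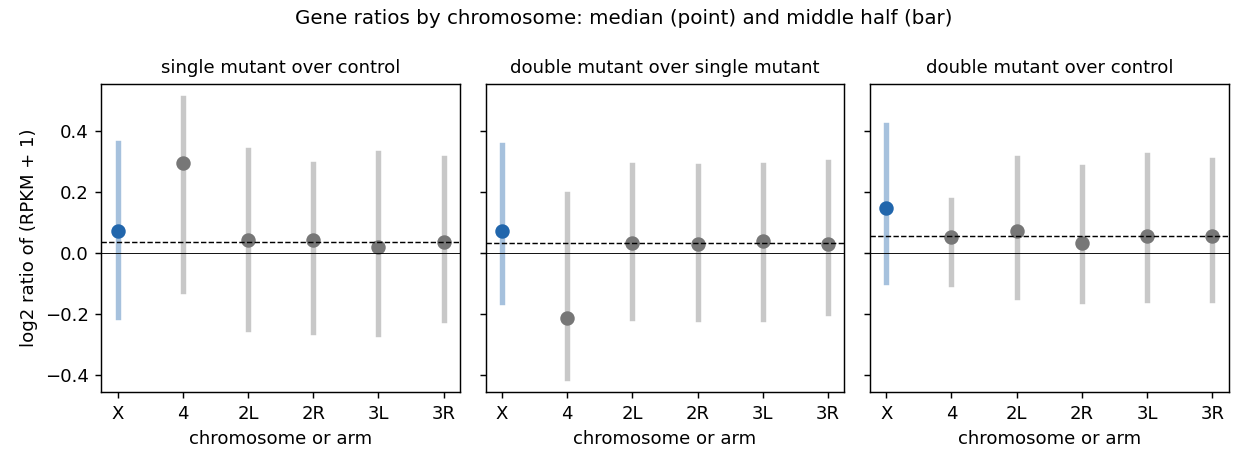
Median log2 ratio of (RPKM + 1) of genes on each chromosome or arm (points) with the middle 50% of genes (bars), in the 3 comparisons, beside the pooled median of the arms 2L, 2R, 3L and 3R (dashed). The X lies above the dashed line in each panel, by 0.09 in double mutant over control, and the spread of single genes is much wider than that.

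Chromosome 4, which has a chromosome-wide system of its own built on the protein POF, was looked at beside the X. Its 79 genes had a median log2 ratio of 0.29 for single mutant over control and -0.21 for double over single mutant. For double mutant over control it was 0.05, close to the 0.06 of the autosome arms, so its departures were in the comparisons that use the single mutant library. Pof itself had 16.4 RPKM in the double mutant, 20.01 RPKM in the single mutant and 16.8 RPKM in control.

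Of 11 genes for partners and regulators of the complex, 0 passed 2-fold in any comparison, where 6.3%, 5.75% and 4.68% of all genes did. Their median log2 ratio was 0.36 for single mutant over control, 0.09 for double over single mutant and 0.36 for double mutant over control, with 8, 7 and 10 of 11 above 0, against 54.1%, 53.8% and 58.0% of all genes. CG1832 encodes CLAMP, the zinc finger protein that opens roX genes and other X sites to the complex. It had 48.9 RPKM in the double mutant and 51.7 RPKM in the single mutant, against 38.8 RPKM in control. JIL-1, a histone H3 kinase gene enriched on the male X, had 11.2 RPKM in the double mutant and 8.66 RPKM in the single mutant, against 6.33 RPKM in control. Unr, which acts with Sex-lethal on msl-2 messenger RNA in females, had 20.2 and 18.8 RPKM in the double and single mutants, against 15.1 RPKM in control.

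The Sxl gene itself could be read only through the joined row CG14425,Sxl. That row had 40.4 RPKM in the double mutant and 53.3 RPKM in the single mutant, against 31.2 RPKM in control, so the single mutant was 1.71-fold above control. how, an RNA-binding protein gene that also acts on msl-2 messenger RNA, had 12.5 RPKM in the double mutant and 13.8 RPKM in the single mutant, against 7.57 RPKM in control. It had the largest ratio of the list, 0.78 for single mutant over control. Some partners were level with control or below it. Top2, the topoisomerase gene, had 171 RPKM in the double mutant and 161 RPKM in the single mutant, against 187 RPKM in control, below control in both mutants. Rm62, an RNA helicase gene, had 243, 214 and 233 RPKM in double mutant, single mutant and control, and Su(var)3-7, a heterochromatin gene, had 26.7, 25.5 and 26.1 RPKM.

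The non-specific lethal (NSL) complex also holds MOF and works at promoters on all chromosomes. Of its 8 other genes 0 passed 2-fold in any comparison, where 6.3%, 5.75% and 4.68% of all genes did. The medians were 0.03, 0.03 and -0.02 in the order used above. Of these genes, nsl1 was read only through the joined row Acyp2,CG4699,CG9593. Of 6 genes for other acetyltransferases and histone deacetylases, 5 reached 1 RPKM and 0 of these passed 2-fold. For lists this short, counts of 0 are near the share of all genes. Tip60, the gene of another MYST acetyltransferase, had 18.2 RPKM in the double mutant, 14.4 RPKM in the single mutant and 17.9 RPKM in control.

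Of the 10 sex determination genes, 1 passed 2-fold in 1 comparison, double over single mutant, where 5.75% of all genes did, so the share is near the background for a list of this size. fru, whose male-specific transcripts specify male behaviour circuits, had 16.04 RPKM in the double mutant, 6.50 RPKM in the single mutant and 11.4 RPKM in control, so the double mutant had 2.47 times the single mutant level. dsx, the switch gene for somatic sex, had 4.38 RPKM in the double mutant and 4.21 RPKM in the single mutant, against 2.73 RPKM in control. tra, in the joined row spd-2,tra, had 55.6 RPKM in the double mutant, 50.8 RPKM in the single mutant and 64.8 RPKM in control. Gene totals do not separate the male and female splice forms of these genes.

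No library showed Y chromosome or yolk protein transcripts at more than trace levels. Of 11 listed Y genes 8 had a row, with at most 0.0196 RPKM in any library. These genes are known from testis. The yolk protein genes Yp1, Yp2 and Yp3, made by adult females, reached at most 1.18 RPKM. Neither list gave a measure of the sex of the larvae.

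**Figure D4:**
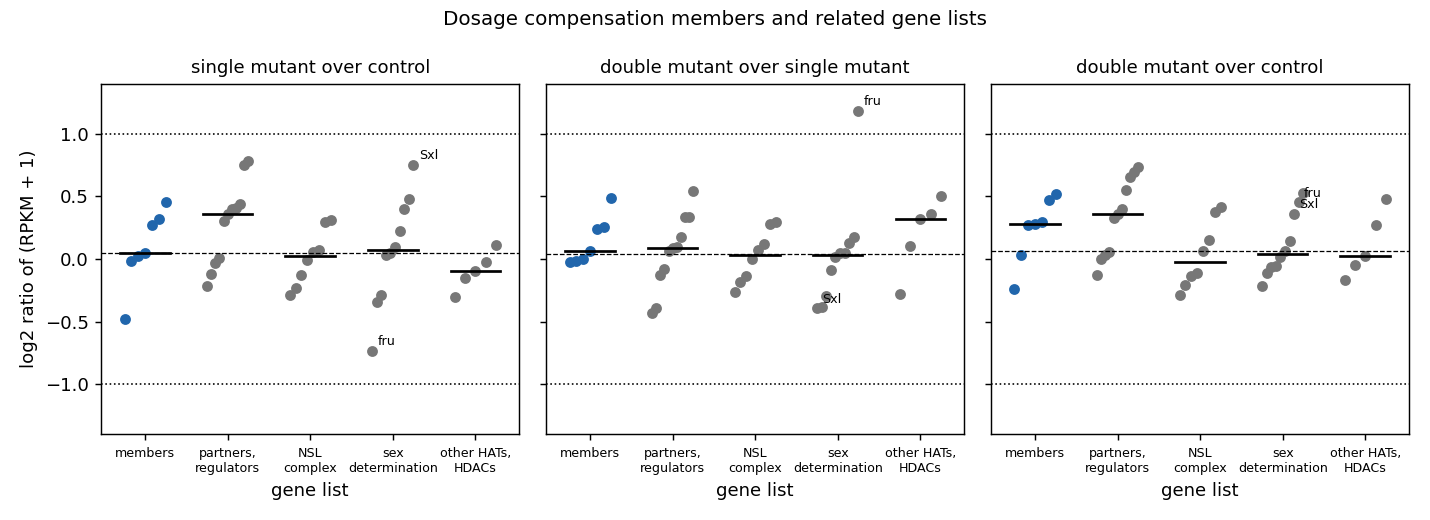
Log2 ratio of (RPKM + 1) of single genes (points) in the members and 4 related lists, with list medians (bars), the median of all genes (dashed) and 2-fold (dotted), in the 3 comparisons. fru is the only point past 2-fold, in double over single mutant, and Sxl, read through a joined row, is the highest sex determination gene in single mutant over control.

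Genes beside the roX loci were compared with them, since roX genes are entry sites of the complex. The 3 nearest named rows on each side of both genes made 12 rows, of which 9 reached 1 RPKM. In any comparison 0 of these 9 passed 2-fold, where 6.3%, 5.75% and 4.68% of all genes did. Rows below 1 RPKM in every library could not reach 2-fold once 1 RPKM was added, so they are left out of this count. A count of 0 among so few rows is near that share. ec, a ubiquitin protease gene whose row ends 1272 bases from roX1, had 29.8 RPKM in the double mutant and 23.6 RPKM in the single mutant, against 15.9 RPKM in control. Like roX1 it stood highest in the double mutant, at a log2 ratio of 0.87 to control. In the later annotation ec exons on the plus strand overlap roX1 exons by 392 bases. As listed in dm3, the rows of ec and roX1 do not overlap. The place of that stretch in dm3 was not looked up, and the sources used here do not say whether the authors counted by strand. Whether its reads entered either value is therefore not known.

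On the other side of roX1, yin had 1.44 RPKM in the double mutant and 1.14 RPKM in the single mutant, against 2.09 RPKM in control. CG2901, listed over the same interval as ec, had 1.87, 1.17 and 1.11 RPKM in double mutant, single mutant and control. The rows CG42499,fd3F, CG34336 and CG2930 stayed below 1 RPKM in every library. Beside roX2, CG11695, whose row ends 249 bases away, had 16.2 RPKM in the double mutant, 11.6 RPKM in the single mutant and 14.7 RPKM in control, with the single mutant lowest as for roX2. nod, a kinesin-like gene 383 bases beyond roX2, had 22.3 RPKM in the double mutant and 23.7 RPKM in the single mutant, against 30.6 RPKM in control, so control was highest as for roX2. In none of the other rows there was control highest. e(y)2 had 99.9 RPKM in the double mutant and 102 RPKM in the single mutant, against 78.2 RPKM in control, and rho-4 had 27.4 and 24.7 RPKM in the double and single mutants, against 18.3 RPKM in control. CG11696 had 34.2, 28.3 and 31.9 RPKM and CG1561 had 2.16, 1.27 and 1.39 RPKM in double mutant, single mutant and control. CG11697 lies outside the nearest rows, 5.42 kb from roX2, and is named after its values were seen. It had 32.4 RPKM in the double mutant, 0.0652 RPKM in the single mutant and 0.192 RPKM in control, a difference larger than that of any of the 12 nearest rows.

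The genes most like roX2 over the 3 libraries, by the larger of the differences in log2 ratio (single mutant over control and double mutant over control), were CG5757, CG10092, scra, CG9641 and RnrS. All 5 lay within 0.0170 of it. scra, the anillin gene, had 62.8 RPKM in the double mutant, 52.7 RPKM in the single mutant and 74.1 RPKM in control. The 5 most like roX1, within 0.0175, were Rab9Fb, Ptp52F, CG3558, Mgat1 and CG8963. Rab9Fb had 1.33 RPKM in the double mutant, 1.21 RPKM in the single mutant and 0.613 RPKM in control. Ptp52F had 2.36, 2.23 and 1.33 RPKM and Mgat1 3.95, 3.75 and 2.49 RPKM, in the same order. For genes this low the added 1 RPKM makes ratios smaller, so in RPKM these genes differed from control by more than roX1 did. Over 3 libraries such likeness is common: 183 of 9231 genes lay within 0.1 of roX2 and 163 within 0.1 of roX1. Of these 16.4% and 19.6% were on the X, where 16.7% of the genes compared lie.

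The libraries carried brain RNA and differed in RNA of other tissues. The 5 neuron markers summed to 105 RPKM in the double mutant, 67.3 RPKM in the single mutant and 64.4 RPKM in control, but single markers went different ways. Against control, elav and nSyb were higher in the single mutant (log2 ratios of 0.57 and 0.07) and Syt1, brp and Cha lower (-0.54, -0.43 and -0.59), with a list median of -0.43. Cha was read only through the joined row Cha,VAChT, and moody, among the glial markers, only through CG4325,moody. brp, a synaptic active zone gene, passed 2-fold in double over single mutant, with 21.04 RPKM in the double mutant, 7.48 RPKM in the single mutant and 10.4 RPKM in control. The 5 glial markers summed to 114.7, 107 and 105 RPKM, in the same order of libraries, and among them repo, the glial homeobox gene, passed 2-fold in double over single mutant, with 16.4, 6.73 and 12.4 RPKM. The 4 neuroblast markers summed to 65.5, 82.6 and 70.3 RPKM, with 0 past 2-fold, where 6.3%, 5.75% and 4.68% of all genes were. None of the neuron, glial or neuroblast markers was listed at 0.

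The largest differences were in markers of fat body, salivary gland, gut and hemocytes, though not in every marker of these. Markers of the ring gland differed less, and those of germline and testis were mostly too low to compare. The 6 fat body markers (Lsp1alpha, Lsp1beta, Lsp1gamma, Lsp2, Fbp1 and Fbp2) summed to 1209 RPKM in the double mutant, 213 RPKM in the single mutant and 581 RPKM in control. All 6 passed 2-fold in double over single mutant. The 4 salivary gland markers summed to 87.5, 635 and 159 RPKM. Of these Sgs5, Sgs7 and Sgs8 were past 2-fold lower in the double than the single mutant, while Sgs3 was highest in control, with 2.65, 5.40 and 6.89 RPKM. The 5 gut markers (Jon65Aiii, Jon65Aiv, deltaTry, yip7 and LysS) summed to 35.6, 1.13 and 88.6 RPKM and all passed 2-fold in double over single mutant, LysS being listed at 0 in the single mutant. The 4 hemocyte markers summed to 502, 169 and 172 RPKM, a sum carried by proPO-A1 (365, 92.04 and 119 RPKM). Hml had 94.1, 29.4 and 29.9 RPKM, He had 38.6, 40.4 and 15.1 RPKM, and NimC1 was lowest in the double mutant, with 4.15, 7.02 and 7.94 RPKM. The 3 ring gland markers summed to 404, 476 and 482 RPKM, with 0 past 2-fold. The 6 germline and testis markers summed to 3.45, 3.46 and 2.38 RPKM, and aly was listed at 0 in the double mutant. Only 1 of the 6 reached 1 RPKM, bam, which made up most of the sum with 2.11, 2.44 and 1.37 RPKM. The part of all these tissues in the roX and msl values was not tested. BRWD3 had 47.8, 43.2 and 29.1 RPKM and yem (listed as yemalpha) 15.6, 8.04 and 11.9 RPKM in the same order of libraries, so BRWD3 was lowest in control and yem in the single mutant. RNA of the targeted genes was not lowered in the libraries labelled as their mutants, and whether the alleles lower it is not stated in the labels.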

How the data were processed

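RPKM values for 3 libraries, 1 per genotype, were taken from the table the authors deposited. Per the submitters' processing notes the tools were Cufflinks 2.0.2, TopHat2 2.0.9, Trimmomatic and FastQC, with build dm3. The sources used here give neither settings nor strand handling. Of 15229 rows, 1769 had no gene name and 1 a missing value, and these were left out. Of rows with the same name the one with the highest mean was kept, which left 13358 genes, 522 of them joined rows.

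A pseudocount of 1 RPKM was added before each log2 ratio. Ratios were taken over the 9693 genes that reached 1 RPKM in any library. The pseudocount makes ratios of low genes smaller. Starts in the table were raised by 1: with starts counted from 0, 1282 of 7894 single-gene intervals had exactly the annotated length, against 133 otherwise. Genes named were all members, every list or marker gene past 2-fold, Sxl, tra, dsx, fru and the CLAMP gene, the 3 nearest rows on each side of the roX genes and the 5 genes most like each. Other list genes, form3 and CG11697 were named after their values were seen. Members and lists were chosen with earlier results of these data known. Computation used Python 3.11.15, pandas 2.3.3 and Ensembl release 115, and was tested on simulated data.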

Additional observations from a re-analysis of the deposited data

How the results depend on the processing

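None of the 7 members passed 2-fold in any comparison under 9 other settings (pseudocounts of 0.1 and 5 RPKM, no filter, a filter of 5 RPKM, division by the autosome median, rescaling without short and multicopy RNA genes, leaving out joined rows, including rows with no gene name, and a threshold of 1.5-fold). Without joined rows mle had no value. The threshold of 1.5-fold was run on the deposited RPKM alone. Under the rescaling, roX1 (double mutant over control) and msl-2 (double mutant over control and over single mutant) passed it. The rescaling raised the median of all genes to 0.34 for double mutant over control and 0.30 for double over single mutant. Of the 21 member ratios, 13 kept their sign under all settings run and 8 did not; relative to the median of all genes, 18 kept it and 3 (mle and msl-3 for single mutant over control, mle for double mutant over control) did not. roX2 for double mutant over control turned to 0.06 under the rescaling and stayed below the median of all genes by 0.25 to 0.32 under every setting. The roX1 ratio ranged from 0.40 to 0.46 for single mutant over control and from 0.39 to 0.81 for double mutant over control.

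The X minus autosome difference ranged from 0.06 to 0.11 (double mutant over control), 0.03 to 0.05 (double over single mutant) and 0.03 to 0.06 (single mutant over control), over settings that include 2 chosen after seeing the data (classes of transcript length and of mean level). In classes of mean level it was 0.13, 0.13, 0.16, 0.05 and 0.02 from the lowest to the highest class for double mutant over control, and in the highest class it was -0.03 for single mutant over control. The ratio of X to autosome median RPKM was 1.43, 1.32 and 1.27 in double mutant, single mutant and control with no filter, and 0.991 and 0.907 in double mutant and control with a filter of 5 RPKM; the cause was not tested. No paired analysis was possible because each genotype has 1 library. With 1 library per genotype, no library could be left out, and the read numbers behind each value are approximate.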
